A study of Mus musculus with 9 samples.

Results

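The genes described here encode voltage-gated calcium channels, the auxiliary subunits of these channels, the canonical transient receptor potential (Trpc) channels and the calcium release receptors of the endoplasmic reticulum. They were chosen by gene symbol: the Cacna1, Cacna2d1 to Cacna2d4, Cacnb1 to Cacnb4, Cacng1 to Cacng8, Trpc, Ryr and Itpr genes, 39 of the 23319 genes counted. Their RNA was read in 9 libraries, 3 per mouse line, made from green fluorescent cortical cells at postnatal day 5. Mice of the genotype Nkx2.1-CreER;Ai47, treated with tamoxifen at embryonic day 17 (E17), gave the Nkx2.1 libraries. SOM-Cre;Ai47 mice gave the SOM libraries and VIP-Cre;Ai47 mice the VIP libraries, with no treatment recorded for either. All 3 lines carried the Ai47 reporter, and each sample was 150 cells picked by hand after slicing, layer 2/3 dissection of medial prefrontal and anterior cingulate cortex, and Pronase E digestion. A library therefore holds whatever cells the Cre driver had marked in that tissue, and the protocol, which calls the pups ChC-GFP, SST-GFP or VIP-GFP, does not say whether pups were pooled or whether libraries of a line came from separate pups. The spread behind each p-value may therefore be technical.

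Voltage-gated calcium channels open when a neuron is depolarized. The pore is an α1 subunit (Cacna1 genes), an extracellular α2δ subunit (Cacna2d genes) raises the number of channels at the surface, and an intracellular β subunit (Cacnb genes) helps the pore reach the membrane and tunes its gating. L-type pores couple activity to gene expression, P/Q-, N- and R-type pores drive transmitter release, and T-type pores open near rest and shape bursts. Most Cacng genes do not act on these channels: Cacng2, Cacng3, Cacng4, Cacng5, Cacng7 and Cacng8 encode transmembrane AMPA receptor regulatory proteins (TARPs), which carry AMPA-type glutamate receptors to synapses and modulate their gating, so they are given apart. Cacng1 and Cacng6 are the muscle-type γ subunits. Trpc channels pass cations after receptors activate phospholipase C, and ryanodine receptors (Ryr) and inositol trisphosphate receptors (Itpr) release calcium from internal stores.

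Of the 39 genes, 10 encode α1 subunits, 4 α2δ subunits, 4 β subunits, 2 muscle-type γ subunits, 6 TARPs, 7 Trpc channels, 3 ryanodine receptors and 3 inositol trisphosphate receptors. After a filter on low counts 32 were tested. The other 7 were Cacna1f, Cacna1s, Cacng1, Cacng6, Cacng7, Itpr3 and Trpc1, and of these Cacna1f, Cacng6 and Trpc1 had no read in any library. Levels are CPM, the counts of a gene as a share of the TMM-scaled library total, with the SD over the 3 libraries of a line. A 3-read floor came to 0.248 to 0.447 CPM in a library, and floors and intervals reflect counting error alone, because the reads carry no molecular identifiers and need not be separate molecules. Levels in such bulk samples cannot be split further: fewer cells of a type and less RNA per cell cannot be told apart.

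The libraries held 6484488 to 12465997 reads in genes, with 10850303 to 12465997 in the Nkx2.1, 6484488 to 9184008 in the SOM and 8071044 to 11439809 in the VIP libraries. Marker genes followed the labels: Lhx6 was at 888 to 1784 CPM in the Nkx2.1 and 608 to 822 CPM in the SOM libraries against at most 0.247 CPM in the VIP libraries, Sst at 1456 to 2180 CPM in the SOM libraries, and Vip at 414 to 805 CPM in the VIP libraries. Nkx2-1 itself had at most 1.37 CPM in the Nkx2.1 libraries. Markers of other cells were present too. The 8 astrocyte markers summed to 171 to 2351 CPM in the Nkx2.1, 37.7 to 124 CPM in the SOM and 233 to 380 CPM in the VIP libraries, of which Slc1a2 alone made 216 to 375 CPM in the VIP libraries. The 8 oligodendrocyte lineage markers summed to 261 to 304 CPM in the Nkx2.1, 101 to 266 CPM in the SOM and 1.73 to 112 CPM in the VIP libraries. Olig1 stayed at or under 1.72 CPM in every library, and Olig2 had reads only in SOM replicate 1 (15.7 CPM). The 7 excitatory neuron markers summed to 0 to 117 CPM in the Nkx2.1, at most 9.84 CPM in the SOM and 3.30 to 157 CPM in the VIP libraries, and microglial, endothelial and mural markers did not exceed 18.0 CPM in any library. Astrocyte sums did not overlap between SOM and either other line, and oligodendrocyte lineage and microglial sums did not overlap between Nkx2.1 and VIP. Between SOM and VIP, Slc1a2 was the only astrocyte marker without overlap, and between Nkx2.1 and SOM no single astrocyte marker was. Between Nkx2.1 and VIP, Pdgfra was the only oligodendrocyte lineage marker without overlap, and no single microglial marker was. Each comparison thus had such a list whose sum, though few of its single genes, moved with it. The part of these lists in the differences given here was not tested.

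None of the 32 tested genes of this set, called members here, passed the test across all genes (edgeR quasi-likelihood test, Benjamini-Hochberg adjusted p under 0.05 over 10728 genes). Among all genes tested, 0.0932% passed between Nkx2.1 and SOM, 0.308% between Nkx2.1 and VIP, 0.0746% between SOM and VIP, and 0.336% in a test for any difference among the 3 lines. At an unadjusted p under 0.05 with edgeR, 4 members passed between Nkx2.1 and SOM against 11.3% of all genes, 6 between Nkx2.1 and VIP against 15.2%, 5 between SOM and VIP against 6.99%, and 6 in the test for any difference against 11.7%. DESeq2 on the same counts called 3, 5, 3 and 5 members in these 4 tests, against 7.16%, 11.8%, 3.56% and 6.39% of all genes, and limma voom, which was added after seeing the data, called 0, 2, 0 and 2, against 1.05%, 3.01%, 0.699% and 3.32%. What follows is therefore mostly a description of levels.

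Libraries of the same line often differed widely. In the Nkx2.1 libraries 26 members reached 100 reads in at least 1 library, and 14 of them had 3 or fewer reads in another library of the same line, against 38.6% of all genes that reached 100 reads. In the SOM libraries this was so for 6 of 31 members, against 14.2% of such genes, and in the VIP libraries for 10 of 29, against 25%. Cacna1d is an example, with 1156, 5051 and 2 reads in Nkx2.1 replicates 1, 2 and 3. Only 10 of the 32 tested members had more than 3 reads in all 9 libraries: Itpr2, Cacng2, Cacnb4, Cacna1g, Cacna1a, Cacnb3, Cacna2d3, Cacna1c, Ryr2 and Ryr3.

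**Figure D1:**
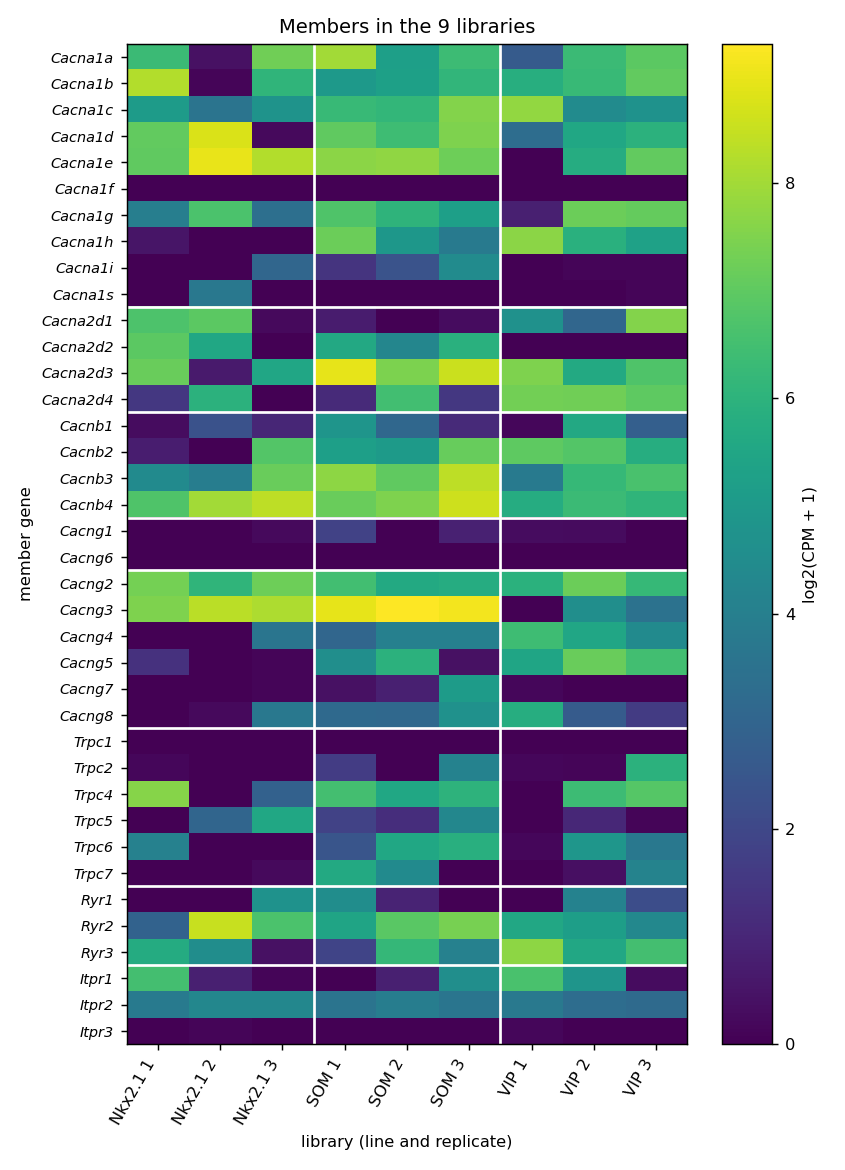
Level of 38 of the 39 genes (rows, grouped by subfamily) in the 9 libraries (columns), as log2(CPM + 1) on the color scale. The row of Cacng3 is bright in the 6 Nkx2.1 and SOM libraries and dim in the 3 VIP libraries, Itpr2 is nearly even, and Cacna1f, Cacng6 and Trpc1 are at 0 throughout.

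The promoters of 3 members with some of the plainest differences between lines, picked after their values were seen, are shown first. Each is the 250 bases before a RefSeq transcription start (GRCm38.p6, the assembly also called mm10), 5′ to 3′ on the strand of the gene, and capitals mark GC boxes, GGGCGG on either strand, counted with overlaps. Cacna2d2 is at chr9:107399630-107399879 (plus strand). Cacnb4 is at chr2:52676144-52676393 (minus strand), for 1 of its 3 starts in the table, and Cacng5 at chr11:107915056-107915305 (minus strand), for 1 of its 2 starts. In the GENCODE M21 annotation Cacna2d2 begins at 107399612 and Cacnb4, on the minus strand, at 52676831. The windows of these genes thus lie before the RefSeq start used but within the annotated gene, and may hold transcribed bases.
Cacna2d2: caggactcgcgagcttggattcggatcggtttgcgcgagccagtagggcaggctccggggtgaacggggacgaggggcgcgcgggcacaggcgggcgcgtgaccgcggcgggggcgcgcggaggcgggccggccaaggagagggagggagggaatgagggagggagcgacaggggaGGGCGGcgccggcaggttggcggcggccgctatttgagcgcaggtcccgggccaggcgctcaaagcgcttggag
Cacnb4: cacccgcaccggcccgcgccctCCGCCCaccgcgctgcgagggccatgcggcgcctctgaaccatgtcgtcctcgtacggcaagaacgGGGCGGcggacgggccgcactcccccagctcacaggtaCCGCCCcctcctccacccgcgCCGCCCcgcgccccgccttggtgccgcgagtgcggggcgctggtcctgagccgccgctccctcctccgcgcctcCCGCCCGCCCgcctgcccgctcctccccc
Cacng5: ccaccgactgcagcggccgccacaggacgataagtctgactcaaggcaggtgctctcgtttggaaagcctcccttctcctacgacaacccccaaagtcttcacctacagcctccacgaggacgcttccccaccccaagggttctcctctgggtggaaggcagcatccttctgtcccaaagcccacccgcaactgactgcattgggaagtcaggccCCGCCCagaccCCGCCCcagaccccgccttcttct
Cacnb4 has 37 CpG dinucleotides and 6 GC boxes in this window and Cacna2d2 34 and 1, while Cacng5 has 12 and 2. The median over 32851 RefSeq promoters of this length was 6 CpG, and 32.7% of them hold a GC box. A TATAAA box, in 12.4% of all promoters, was found in none of the 3 windows. The table held 39 promoters of 30 members. Cacna2d2 and Cacnb4 had higher levels in the Nkx2.1 and SOM libraries than in the VIP libraries on average, and Cacng5 had lower ones. The other starts of Cacnb4 and Cacng5 had 0 GC boxes in their windows, so the counts depend on the start shown. Any relation between these windows and the levels was not tested.

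Of the 5 tested TARP genes, Cacng3, Cacng4 and Cacng5 had levels that did not overlap between some of the lines. Cacng3, whose protein is a TARP of forebrain neurons, had the highest level per exon length of all members, 100.2 CPM per kb over the 9 libraries. It had 180, 323 and 286 CPM in the Nkx2.1, 498, 626 and 557 CPM in the SOM and 0, 23.2 and 10.4 CPM in the VIP libraries. The 3 lines did not overlap: the lowest SOM library lay above the highest Nkx2.1 library, and the VIP libraries lay under both. Means were 263 ± 74.1 CPM in the Nkx2.1, 560 ± 64.4 CPM in the SOM and 11.2 ± 11.6 CPM in the VIP libraries (SD, n = 3 each).

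The fitted log2 fold change of Cacng3 was 4.55 (SE 1.34) for Nkx2.1 against VIP, with an edgeR adjusted p of 0.186, and 5.64 (SE 1.41) for SOM against VIP, with an edgeR adjusted p of 0.338. Neither passed with edgeR. Without VIP replicate 1, the library with no Cacng3 read, the SOM against VIP value was 5.08 (SE 0.655, edgeR adjusted p 0.0436), which passed. DESeq2 called both differences, with adjusted p of 0.00278 and 3.07e-04. Between Nkx2.1 and SOM the log2 value was -1.09 (SE 1.17, edgeR adjusted p 0.885), with no call by any tool. The summed oligodendrocyte lineage markers, 261 to 304 CPM in the Nkx2.1 libraries against 1.73 to 112 CPM in the VIP libraries, did not overlap between these lines either. Taken singly, only Pdgfra of these markers did not overlap. The part of these markers in the Cacng3 difference was not tested.

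Cacng3 led the TARP genes per exon length in all 6 Nkx2.1 and SOM libraries, where it made 68.7% to 90.6% of their summed level per length. In the VIP libraries the leading TARP was Cacng8 in replicate 1 and Cacng5 in replicates 2 and 3. Cacng5, a TARP of the type II class, had 1.49, 0 and 0.0835 CPM in the Nkx2.1, 23.0, 62.5 and 0.346 CPM in the SOM and 43.1, 143 and 87.8 CPM in the VIP libraries. All VIP libraries were above all Nkx2.1 libraries, and the SOM libraries ranged over both. Its log2 fold change was -7.43 (SE 2.45) for Nkx2.1 against VIP, edgeR adjusted p 0.225, and DESeq2 (adjusted p 3.02e-04) and limma voom (adjusted p 0.0324) called it. For Nkx2.1 against SOM it was -5.76 (SE 2.27), with an edgeR adjusted p of 0.384 and a DESeq2 adjusted p of 0.0143, and without Nkx2.1 replicate 1 it was -9.03 (edgeR adjusted p 0.250).

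Cacng4, another TARP, had 0, 0 and 11.2 CPM in the Nkx2.1, 7.38, 15.4 and 15.6 CPM in the SOM and 83.6, 44.6 and 21.1 CPM in the VIP libraries. The lowest VIP library was above every library of the other lines. The fitted log2 value was -3.73 (SE 2.40) for Nkx2.1 against VIP and -1.96 (SE 2.23) for SOM against VIP, with edgeR adjusted p of 0.538 and 0.9996. One library set the size of the first: without Nkx2.1 replicate 3, the only Nkx2.1 library with reads of the gene, it was -11.87 (SE 2.65, edgeR adjusted p 0.113). The summed astrocyte markers were also higher in all VIP libraries, at 233 to 380 CPM, than in all SOM libraries, at 37.7 to 124 CPM. These VIP sums were mostly Slc1a2 (216 to 375 CPM), and the other astrocyte markers overlapped between SOM and VIP. The part of astrocyte markers in the Cacng4 values was not tested.

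Cacng2 and Cacng8, the remaining tested TARP genes, overlapped in all comparisons. Cacng2, which encodes stargazin, was the steadiest, with 161, 65.9 and 149 CPM in the Nkx2.1, 87.3, 48.6 and 53.6 CPM in the SOM and 59.8, 147 and 74.6 CPM in the VIP libraries. It was the TARP with the least spread over the 9 libraries (CV 48.2%). Cacng8 averaged 4.09 ± 6.94 CPM in the Nkx2.1, 13.7 ± 9.81 CPM in the SOM and 20.8 ± 29.7 CPM in the VIP libraries. Cacng7, which the filter on low counts left out, had 0, 0 and 0.0835 CPM in the Nkx2.1, 0.321, 0.746 and 33.2 CPM in the SOM and 0.124, 0 and 0 CPM in the VIP libraries. Its SOM libraries were above all others, but 288 of its 298 reads were in SOM replicate 3, and the other SOM libraries had 3 and 5 reads. Summed over the 6 TARP genes, the sum was 397 ± 58.4 CPM in the Nkx2.1, 690 ± 68.9 CPM in the SOM and 267 ± 86.5 CPM in the VIP libraries. The 3 SOM sums, 624, 761 and 685 CPM, were above all others, and the Nkx2.1 sums of 343 to 459 CPM overlapped the VIP sums of 196 to 363 CPM.

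**Figure D2:**
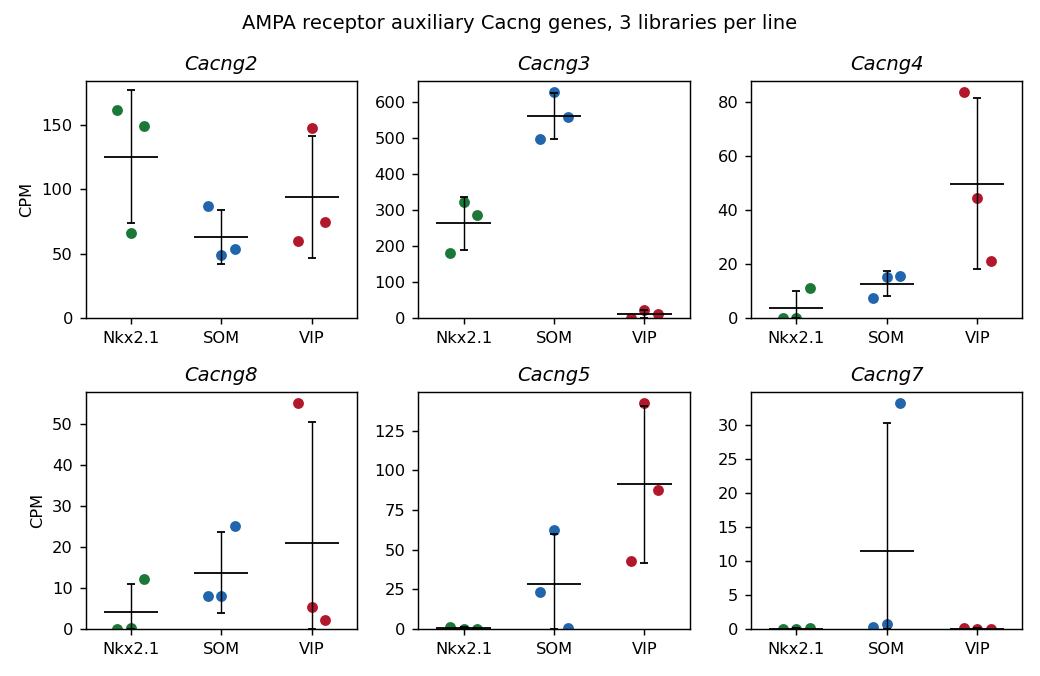
CPM of the 6 TARP genes in each library (points), with the mean (bar) and SD (whisker, drawn from 0 up) of the 3 libraries of each line. Cacng3 sits between 180 and 626 CPM in the Nkx2.1 and SOM libraries and at no more than 23.2 CPM in the VIP libraries. Cacng4 is highest in the VIP libraries. Cacng5 is highest there on average, with SOM replicate 2 (62.5 CPM) above VIP replicate 1 (43.1 CPM).

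The genes without the TARPs, 33 in all, gave 27 tested members. Over all 32 tested members, 4 had no overlap between the Nkx2.1 and SOM libraries, all lower in Nkx2.1, against 19.9% of all genes tested (5.9% higher and 14% lower in Nkx2.1). Between Nkx2.1 and VIP 7 did not overlap, 3 higher and 4 lower in Nkx2.1, against 20.1% of all genes (7.31% higher and 12.8% lower). Between SOM and VIP 11 did not overlap, 8 higher and 3 lower in SOM, against 19.9% of all genes (10.9% higher and 9% lower). The share of tested members was 12.5% between Nkx2.1 and SOM, below the share for all genes, 21.9% between Nkx2.1 and VIP, near it, and 34.4% between SOM and VIP, above it. The median log2 fold change of the tested members was -0.71 for Nkx2.1 against SOM, -0.02 for Nkx2.1 against VIP and 0.25 for SOM against VIP, beside medians of -0.01, 0.00 and 0.00 over all genes tested. Without the TARPs the counts were 3, 4 and 9 of 27.

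Among the pores, the T-type gene Cacna1h stood out. It had 0.458, 0 and 0 CPM in the Nkx2.1 libraries (4 reads in all), 145, 29.4 and 13.4 CPM in the SOM libraries, and 203, 58.1 and 38.8 CPM in the VIP libraries. Every SOM and VIP library was above every Nkx2.1 library, and the SOM and VIP libraries overlapped. Summed astrocyte markers differed without overlap between Nkx2.1 and SOM, and oligodendrocyte lineage markers between Nkx2.1 and VIP, both higher in Nkx2.1. Summed microglial markers were lower in Nkx2.1, as Cacna1h was, at no more than 0.915 CPM against 6.06 to 8.74 CPM in VIP. Taken singly, no astrocyte marker lacked overlap between Nkx2.1 and SOM. Between Nkx2.1 and VIP only Pdgfra of the oligodendrocyte lineage and microglial markers did. The part of these markers was not tested. The log2 fold change was -8.63 (SE 2.21) for Nkx2.1 against SOM, edgeR adjusted p 0.305, and -9.31 (SE 2.26) for Nkx2.1 against VIP, edgeR adjusted p 0.144, the lowest of any member. DESeq2 called both, with adjusted p of 1.99e-06 and 7.15e-08, and limma voom called the second (adjusted p 0.0203; 0.0587 for the first). Cacna1h shares 158 exon bases with Tpsg1 on the other strand, a mast cell tryptase gene whose own counts were 0 in all Nkx2.1 libraries, 9 to 132 reads in the SOM and 113 to 209 reads in the VIP libraries. The strand setting of the counting is not given in the sources used here, so reads of the pair may not be separable.

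The other T-type genes overlapped between the Nkx2.1 libraries and each other line. Cacna1g averaged 41.5 ± 51.0 CPM in the Nkx2.1, 69.7 ± 34.9 CPM in the SOM and 94.4 ± 81.3 CPM in the VIP libraries. These means had the same order as those of Cacna1h, but with overlap among all lines. Cacna1i stayed low, with 2.48 ± 4.29 CPM in the Nkx2.1, 9.03 ± 10.7 CPM in the SOM and 0.0622 ± 0.0549 CPM in the VIP libraries. Its reads numbered 15, 28 and 185 in SOM against 0, 1 and 1 in VIP, without overlap, and the log2 value for SOM against VIP was 6.88 (SE 2.94, edgeR adjusted p 0.665). Most of the SOM reads were in 1 library. Summed over the 3 T-type genes, the VIP libraries were the most even, at 204, 204 and 176 CPM, against 15.2, 100.3 and 16.9 CPM in the Nkx2.1 and 253, 99.3 and 71.6 CPM in the SOM libraries. All VIP sums were above all Nkx2.1 sums. The genes behind the even VIP sums differed: Cacna1h had 203 and Cacna1g 0.742 CPM in VIP replicate 1, against 38.8 and 137 CPM in VIP replicate 3.

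Of the pores that drive transmitter release, Cacna1e, the R-type pore, had 130, 509 and 295 CPM in the Nkx2.1, 204, 214 and 150 CPM in the SOM and 0, 52.7 and 132 CPM in the VIP libraries. SOM and VIP did not overlap, and the lowest Nkx2.1 library was just under the highest VIP library. For SOM against VIP the log2 value was 1.62 (SE 1.46, edgeR adjusted p 0.9996), and it was 1.05 without VIP replicate 1 and 2.84 without VIP replicate 3. Cacna1a, the P/Q-type pore, and Cacna1b, the N-type pore, overlapped in all comparisons and swung within lines: in Nkx2.1 replicates 1 to 3 Cacna1a had 703, 4 and 1824 reads and Cacna1b 2608, 1 and 804 reads. The sum of these 3 genes in CPM was nonetheless 509, 510 and 514 in the Nkx2.1 libraries, against 489, 289 and 300 CPM in the SOM and 60.6, 208 and 387 CPM in the VIP libraries. Every Nkx2.1 sum was above every SOM and VIP sum. Per exon length the Nkx2.1 sums were 42.2, 20.2 and 31.8 CPM per kb and overlapped the SOM sums of 15.5 to 33.4 CPM per kb and the VIP sums of 6.02 to 29.3 CPM per kb, so neither the evenness nor the order held on that scale.

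The L-type pores of neurons were Cacna1c and Cacna1d. Cacna1c had 33.1, 11.0 and 26.5 CPM in the Nkx2.1, 75.2, 69.4 and 191 CPM in the SOM and 217, 21.2 and 25.7 CPM in the VIP libraries. All SOM libraries lay above all Nkx2.1 libraries, and 1 VIP library reached the SOM range. For Nkx2.1 against SOM the log2 value was -2.25 (SE 1.18, edgeR adjusted p 0.529), and DESeq2 gave no p for this gene. Cacna1d had 132, 431 and 0.167 CPM in the Nkx2.1, 131, 84.1 and 179 CPM in the SOM and 8.90, 45.8 and 61.3 CPM in the VIP libraries. SOM was above VIP in every library, with a log2 value of 1.76 (SE 1.58, edgeR adjusted p 0.9996), and the Nkx2.1 libraries spanned both. Cacna1d shares 589 exon bases with Chdh on the other strand. Cacna1s, the skeletal muscle pore, had 144 of its 145 reads in Nkx2.1 replicate 2.

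**Figure D3:**
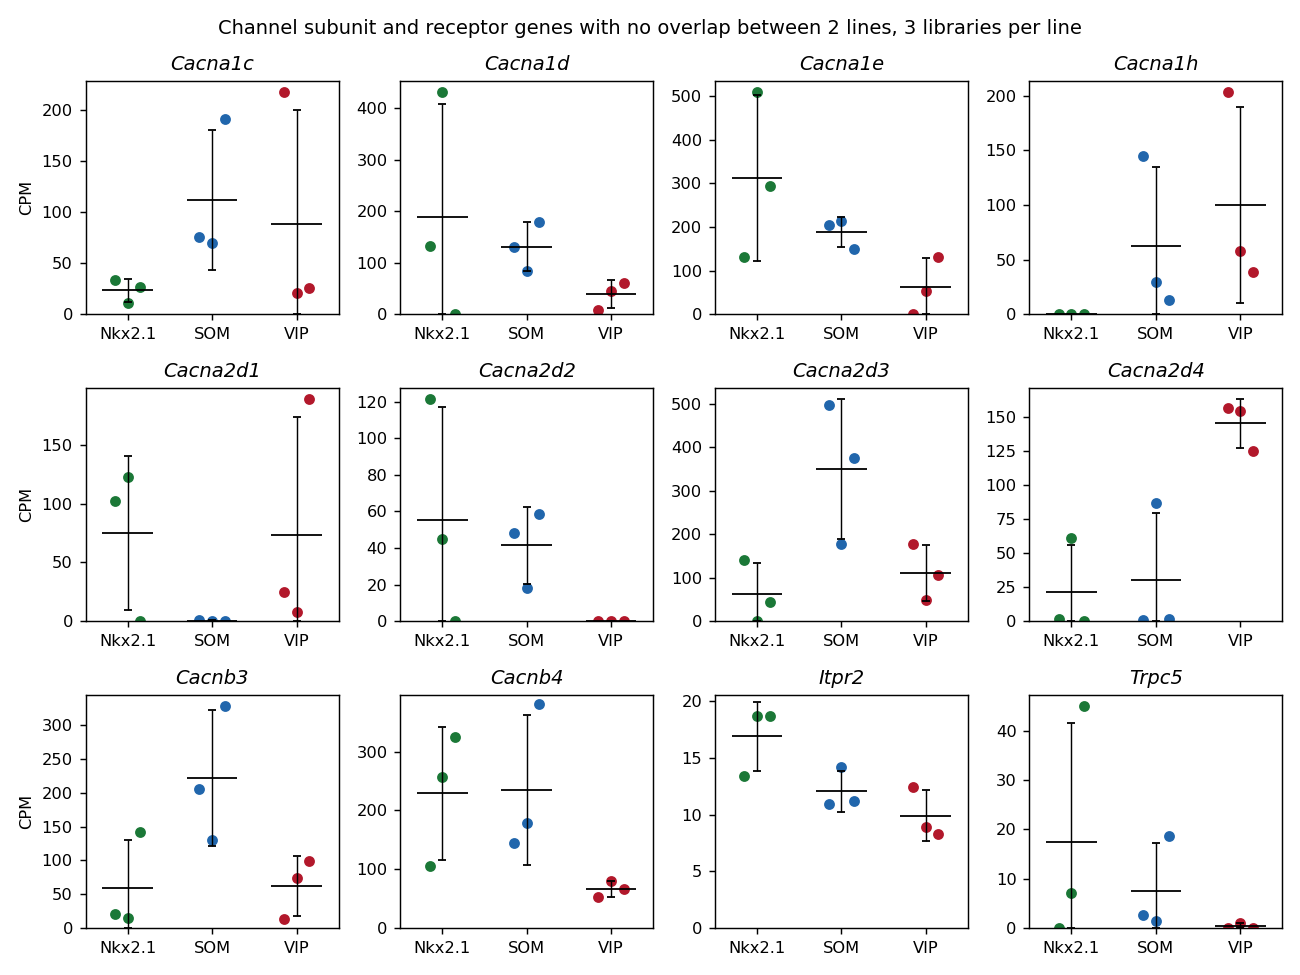
CPM of the 12 channel subunit and receptor genes outside the TARPs that averaged at least 10 CPM in 1 line and did not overlap between 2 lines, by library (points), with mean (bar) and SD (whisker, drawn from 0 up) of 3 libraries per line. Cacna1h is near 0 in the Nkx2.1 libraries, Cacna2d1 is near 0 in the SOM libraries, Cacna2d2 is at 0 in the VIP libraries, and Itpr2 varies least.

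The α2δ genes differed in which line had the lowest level. Cacna2d2, which encodes a gabapentin-binding α2δ subunit, had 122, 44.85 and 0 CPM in the Nkx2.1 and 48.0, 18.0 and 58.5 CPM in the SOM libraries, against no read in any VIP library. SOM and VIP did not overlap, while Nkx2.1 replicate 3 was at 0 like the VIP libraries. With 3 reads over the VIP libraries as the floor (0.101 CPM), the pooled level was at least 433-fold higher in the SOM and at least 486-fold higher in the Nkx2.1 libraries. These limits cover counting error alone, not the spread between libraries of a line. In the edgeR fit the adjusted p was 0.429 for SOM against VIP and 0.186 for Nkx2.1 against VIP, and DESeq2 called both (adjusted p 3.24e-04 and 6.25e-05).

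Cacna2d1, the other gabapentin-binding subunit, had 102, 122 and 0.167 CPM in the Nkx2.1, 0.642, 0 and 0.230 CPM in the SOM and 24.7, 7.39 and 190 CPM in the VIP libraries. The SOM libraries held 8 reads together and lay under every VIP library, and Nkx2.1 replicate 3, with 2 reads, lay among them. The log2 value was 7.92 (SE 2.56) for Nkx2.1 against SOM, edgeR adjusted p 0.328, and -7.90 (SE 2.56) for SOM against VIP, edgeR adjusted p 0.462. DESeq2 called both, with adjusted p of 4.16e-04 and 7.67e-04, and limma voom called neither.

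Cacna2d3 was the most abundant α2δ gene per exon length over the 9 libraries, at 20.0 CPM per kb, and led this family in 6 libraries. It had 141, 0.597 and 44.2 CPM in the Nkx2.1, 496, 177 and 376 CPM in the SOM and 177, 48.8 and 106 CPM in the VIP libraries. The SOM libraries lay above all Nkx2.1 libraries and the lowest SOM library, 177.2 CPM, lay level with the highest VIP library, 177.4 CPM. Its log2 value for Nkx2.1 against SOM was -2.49 (SE 1.30, edgeR adjusted p 0.525), and -3.96 without Nkx2.1 replicate 1. Cacna2d4 had 1.83, 61.4 and 0 CPM in the Nkx2.1, 1.18, 87.2 and 1.84 CPM in the SOM and 157, 155 and 125 CPM in the VIP libraries. The VIP libraries were above all others, with log2 values of -2.79 (SE 2.22) for Nkx2.1 against VIP and -2.28 (SE 2.18) for SOM against VIP and edgeR adjusted p of 0.659 and 0.9996. Without Nkx2.1 replicate 2 the first was -7.31 (edgeR adjusted p 0.305), and without SOM replicate 2 the second was -6.58 (edgeR adjusted p 0.887).

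The counts of Cacna2d4 could not be set apart from those of Lrtm2, a gene inside it on the other strand. Cacna2d4 had 16, 720 and 0 reads in the Nkx2.1, 11, 585 and 16 in the SOM and 1272, 1487 and 1512 in the VIP libraries. Lrtm2 had 16, 626 and 0 reads in the Nkx2.1, 12, 493 and 7 in the SOM and 1338, 1364 and 1540 in the VIP libraries. The annotated exons of the pair share 0 bases, yet the counts were alike in each library. Which of the pair gave these reads was not tested.

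Of the β genes, Cacnb4 showed the most even difference. It had 105, 257 and 326 CPM in the Nkx2.1, 144, 178 and 381 CPM in the SOM and 52.5, 80.7 and 66.4 CPM in the VIP libraries. All 6 Nkx2.1 and SOM libraries were above all VIP libraries. Summed oligodendrocyte lineage markers were likewise higher in all Nkx2.1 than in all VIP libraries, and summed astrocyte markers lower in all SOM than in all VIP libraries. Of the single oligodendrocyte lineage markers only Pdgfra did not overlap between Nkx2.1 and VIP. The VIP astrocyte sums were mostly Slc1a2 (216 to 375 CPM), and the other astrocyte markers overlapped between SOM and VIP. The part of these markers in the Cacnb4 difference was not tested. Means were 229 ± 113 CPM in the Nkx2.1, 234 ± 128 CPM in the SOM and 66.5 ± 14.1 CPM in the VIP libraries. The log2 value was 1.78 (SE 0.655, edgeR adjusted p 0.248) for Nkx2.1 against VIP and 1.82 (SE 0.655, edgeR adjusted p 0.533) for SOM against VIP. DESeq2 called the first (adjusted p 0.0473) and not the second (adjusted p 0.138).

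Cacnb3, the β subunit with the highest level per exon length, had 20.9, 14.4 and 142 CPM in the Nkx2.1, 206, 130 and 329 CPM in the SOM and 13.0, 73.9 and 98.6 CPM in the VIP libraries. The SOM libraries were above all VIP libraries, with a log2 value of 1.84 (SE 1.09, edgeR adjusted p 0.997). They also lay above Nkx2.1 replicates 1 and 2, but Nkx2.1 replicate 3 was within their range. Per exon length Cacnb4 led the β genes in the 3 Nkx2.1 libraries and Cacnb3 in the 3 SOM libraries, while Cacnb2 led in VIP replicate 1 and Cacnb3 in VIP replicates 2 and 3. In Nkx2.1 replicate 3 the lead was narrow, 36.3 CPM per kb for Cacnb4 and 35.4 CPM per kb for Cacnb3. Cacnb2 averaged 37.0 ± 63.6 CPM in the Nkx2.1, 69.3 ± 59.8 CPM in the SOM and 98.0 ± 38.2 CPM in the VIP libraries. Cacnb1, the β subunit of skeletal muscle, averaged 1.77 ± 2.04 CPM in the Nkx2.1, 12.2 ± 14.0 CPM in the SOM and 17.9 ± 25.8 CPM in the VIP libraries, and both genes overlapped in all comparisons.

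The Trpc genes were uneven between libraries. Summed over the 7 genes they came to 208, 7.08 and 97.7 CPM in the Nkx2.1, 228, 115 and 155 CPM in the SOM and 19.2, 112 and 204 CPM in the VIP libraries, with overlap among all lines. Trpc1 adds nothing to these sums, since it had no read and, as set out below, no level can be given for it. Trpc4 was the most abundant of the Trpc genes with reads, with 192, 0 and 6.43 CPM in the Nkx2.1, 90.6, 45.3 and 63.7 CPM in the SOM and 0, 82.2 and 113 CPM in the VIP libraries. Its means were close, 66.1 CPM in the Nkx2.1, 66.5 CPM in the SOM and 65.0 CPM in the VIP libraries, although 2 libraries had no read.

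Trpc5, like Trpc4 a channel opened downstream of Gq-coupled receptors, had 0, 7.08 and 45.1 CPM in the Nkx2.1, 2.57, 1.34 and 18.7 CPM in the SOM and 0, 1.04 and 0.0826 CPM in the VIP libraries. SOM and VIP did not overlap, though the closest pair was 1.34 against 1.04 CPM, and the log2 value was 4.28 (SE 2.67, edgeR adjusted p 0.9996). It was 2.35 without SOM replicate 3 and 7.07 without VIP replicate 2. Trpc6 and Trpc7 form channels gated by diacylglycerol. Trpc6 averaged 5.30 ± 9.18 CPM in the Nkx2.1, 35.6 ± 27.5 CPM in the SOM and 13.7 ± 14.4 CPM in the VIP libraries. Trpc7 was counted 2 times in the Nkx2.1 libraries, against 596 in the SOM libraries, 0 of them in SOM replicate 3, and 205 in the VIP libraries, 202 of them in VIP replicate 3. The log2 value of Trpc7 for Nkx2.1 against SOM was -8.37 (SE 3.58, edgeR adjusted p 0.424). Trpc2, the vomeronasal channel of mice, had 755 of its 919 reads in VIP replicate 3.

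Among the release receptors, Itpr2 had the smallest spread of all tested members (CV 29.0% over the 9 libraries). It had 13.4, 18.7 and 18.7 CPM in the Nkx2.1, 10.9, 14.2 and 11.2 CPM in the SOM and 12.5, 8.95 and 8.26 CPM in the VIP libraries. Nkx2.1 was above VIP in every library, by 1.71-fold in the means, and the SOM libraries overlapped both. The fitted log2 value was 0.77 (SE 1.40, edgeR adjusted p 0.887). Itpr1, the main inositol trisphosphate receptor of neurons, was uneven: 782, 9 and 1 reads in the Nkx2.1, 0, 5 and 200 in the SOM and 786, 270 and 3 in the VIP libraries. Every line thus had a library with at least 200 reads and another with 3 or fewer. Itpr3 had 2 reads in all.

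Ryr2, the ryanodine receptor of heart and brain, had 6.52, 367 and 101.1 CPM in the Nkx2.1, 41.6, 121 and 167 CPM in the SOM and 46.9, 35.9 and 19.3 CPM in the VIP libraries. Ryr3 had 51.7, 22.5 and 0.334 CPM in the Nkx2.1, 2.78, 71.9 and 15.8 CPM in the SOM and 208, 46.5 and 91.4 CPM in the VIP libraries. Both genes overlapped among the lines, though Ryr3 led its family per exon length in the 3 VIP libraries and Ryr2 in the 3 SOM libraries. The fitted log2 value for SOM against VIP was 1.69 (SE 1.21) for Ryr2 and -1.94 (SE 1.65) for Ryr3, both with an edgeR adjusted p of 0.9996. The Ryr3 value was -3.63 without SOM replicate 2 and -1.16 without VIP replicate 1. Ryr3 shares 916 exon bases with Aven on the other strand, which had at most 18 reads in a library. Ryr1, the skeletal muscle receptor, averaged 8.51 CPM or less in each line and was without a read in 4 libraries.

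**Figure D4:**
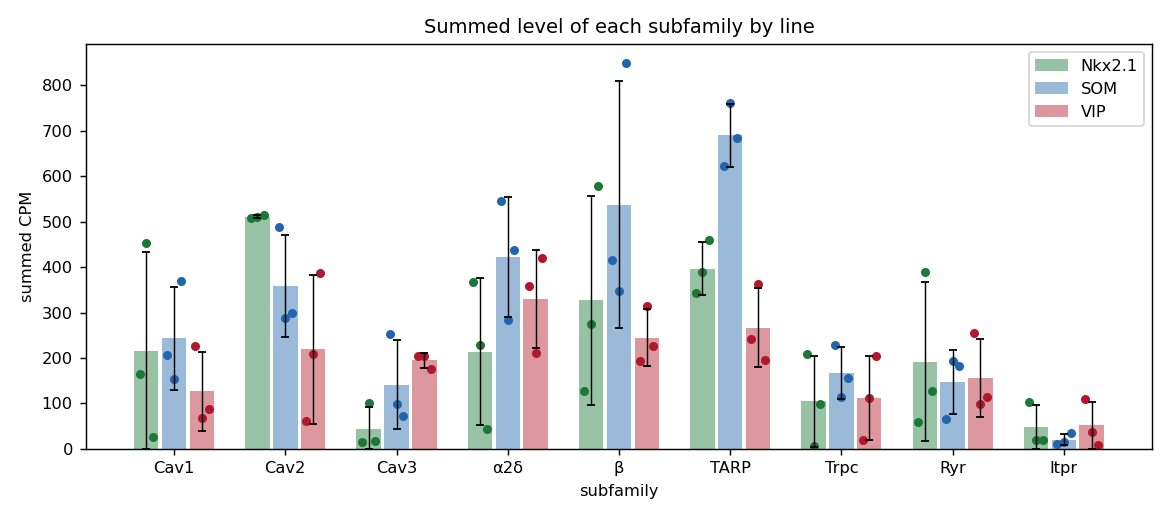
Summed CPM of each subfamily by line: bars are means of 3 libraries, whiskers the SD and points the libraries. The 3 SOM libraries are the highest for the TARP genes, the Nkx2.1 libraries are level at 509 to 514 CPM for the release-type Cav2 pores, and the VIP libraries are level at 176 to 204 CPM for the T-type Cav3 pores. Per exon length the Nkx2.1 sums of the Cav2 pores were not level, at 42.2, 20.2 and 31.8 CPM per kb.

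**Figure D5:**
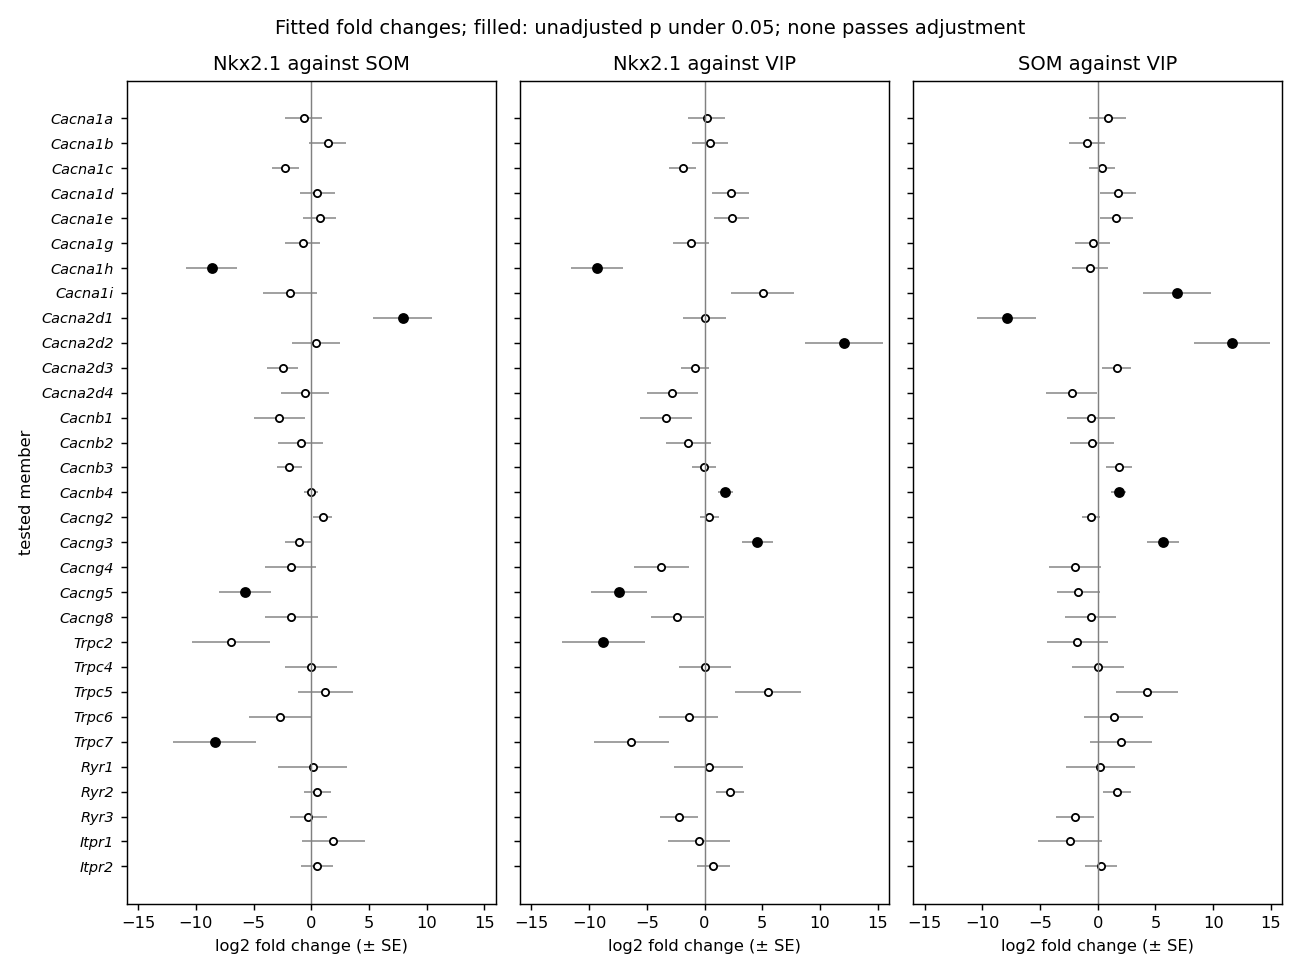
Fitted log2 fold change of 31 of the 32 tested genes (edgeR, first line over second) with its SE, in the 3 comparisons. Filled points have an unadjusted p under 0.05, and no point passes the adjusted threshold of 0.05.

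Per exon length the order of the members over all 9 libraries was Cacng3 (100.2 CPM per kb), Cacnb3 (28.5), Cacna2d3 (20.0), Cacnb4 (19.7) and Cacng2 (17.1), followed by Cacng5 (10.5). The order differed among the lines. In the Nkx2.1 libraries the mean levels per exon length were highest for Cacng3 (94.8 CPM per kb), Cacnb4 (25.6), Cacng2 (22.7) and Cacna1d (14.9), and in the SOM libraries for Cacng3 (202), Cacnb3 (55.3), Cacna2d3 (40.1) and Cacnb4 (26.1). In the VIP libraries Cacng5 (23.8 CPM per kb) came before Cacng2, Cacnb3 and Cacna2d4 (15.4 each for the last pair), and Cacng3 stood at 4.04. The highest pore was Cacna1d in the Nkx2.1 libraries, Cacna1a in the SOM libraries (10.9 CPM per kb, with Cacna1d at 10.4) and Cacna1h in the VIP libraries (10.2), and in each case the SD was above the gap to the next pore. The median tested member was at 5.32 CPM per kb, below the median of 8.90 CPM per kb over the 10068 tested genes with an annotated length.

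Genes that work with these channels were taken from 6 lists with 52 tested genes, and none passed the adjusted edgeR test in any comparison. At an unadjusted p under 0.05 with edgeR, 11 passed between Nkx2.1 and SOM against 11.3% of all genes, 14 between Nkx2.1 and VIP against 15.2%, and 5 between SOM and VIP against 6.99%. DESeq2 called 4, 9 and 0 of them in these comparisons, against 7.16%, 11.8% and 3.56% of all genes, and limma voom 0, 3 and 0, against 1.05%, 3.01% and 0.699%. Counts of genes without overlap are to be read against the shares of all genes given above, and median log2 values against 0.00 or -0.01 over all genes. Store-operated calcium entry gave 3 tested genes of 5, none without overlap, with medians of 0.34 for Nkx2.1 against SOM, -1.24 for Nkx2.1 against VIP and 0.01 for SOM against VIP. Stim2, a sensor of calcium in the store, had 283, 156 and 0 CPM in the Nkx2.1, 32.5, 112 and 66.5 CPM in the SOM and 82.6, 46.0 and 10.2 CPM in the VIP libraries, and Stim1 averaged 32.3 ± 36.0 CPM in the Nkx2.1, 25.4 ± 31.7 CPM in the SOM and 83.9 ± 55.9 CPM in the VIP libraries. Of 10 tested calcium pumps and exchangers, 4 were without overlap in each comparison, and the medians were -0.55 for Nkx2.1 against SOM, 0.03 for Nkx2.1 against VIP and 0.27 for SOM against VIP. Atp2b1, a plasma membrane calcium pump, had 306, 98.2 and 231 CPM in the Nkx2.1, 319.5, 419.5 and 720 CPM in the SOM and 104, 175 and 180.2 CPM in the VIP libraries, so the SOM libraries were above all others. Slc8a1, a sodium-calcium exchanger, had 988, 91.6 and 177 CPM in the Nkx2.1, 544.5, 294 and 148 CPM in the SOM and 64.0, 36.3 and 47.4 CPM in the VIP libraries, and the VIP libraries were below all others. The Slc8a1 log2 value for Nkx2.1 against VIP was 3.09 (SE 0.902, edgeR adjusted p 0.183), and DESeq2 called it.

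For the 12 tested regulators of voltage-gated calcium channels, 5 were without overlap between Nkx2.1 and SOM, all lower in Nkx2.1, 5 between Nkx2.1 and VIP, 4 of them lower, and 4 between SOM and VIP, all higher in SOM. Their medians were -1.43 for Nkx2.1 against SOM, -0.60 for Nkx2.1 against VIP and 0.36 for SOM against VIP. Gnao1, a G protein subunit, averaged 508 ± 111 CPM in the Nkx2.1, 769 ± 164 CPM in the SOM and 1028 ± 278 CPM in the VIP libraries. Of 18 tested partners of the release receptors, 9 did not overlap between Nkx2.1 and SOM, 5 higher and 4 lower in Nkx2.1. Between Nkx2.1 and VIP 6 did not overlap, 3 higher and 3 lower in Nkx2.1. Between SOM and VIP 5 did not, 1 higher and 4 lower in SOM. The shares of all genes were 19.9%, 20.1% and 19.9%, and the medians of the partners -0.81, -0.45 and -0.26 in these comparisons. Grm5, a glutamate receptor that feeds inositol trisphosphate signalling and that DESeq2 and limma voom called between Nkx2.1 and VIP, had 1005, 661 and 654 CPM in the Nkx2.1 libraries, above 572, 227 and 350 CPM in the SOM and 219, 298 and 146 CPM in the VIP libraries, while the G protein gene Gnaq overlapped, at 473 to 770 CPM in the Nkx2.1, 303 to 508 CPM in the SOM and 427 to 531 CPM in the VIP libraries.

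Of the other AMPA receptor auxiliary genes, 7 were tested, of which 3 did not overlap between Nkx2.1 and SOM and 1 between Nkx2.1 and VIP, all lower in Nkx2.1, and none between SOM and VIP. The medians were -2.51 for Nkx2.1 against SOM, -3.57 for Nkx2.1 against VIP and -0.53 for SOM against VIP. Cnih2, a cornichon that slows AMPA receptor closing, had 19.8, 0 and 15.5 CPM in the Nkx2.1, 180, 91.1 and 100.4 CPM in the SOM and 145, 153 and 121 CPM in the VIP libraries. Its Nkx2.1 libraries were the lowest, whereas those of Cacng3 lay between the other lines. Shisa6 overlapped throughout, at 0.170 to 379 CPM in the Nkx2.1, 174 to 478 CPM in the SOM and 210 to 690 CPM in the VIP libraries. Mcu, the pore of mitochondrial calcium uptake, did not overlap between the SOM libraries, at 22.7 to 29.6 CPM, and the VIP libraries, at 8.67 to 22.4 CPM.

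The 3 genes without a read lay in different surroundings. Cacna1f, the L-type pore of the retina, is on chromosome X at 7607083 to 7635196 (GRCm38, GENCODE M21), within 130 consecutive protein-coding genes, on both strands, that had no read in any library, a stretch from 5466898 to 35427093. That stretch holds genes such as Syp, which encodes the synaptic vesicle protein synaptophysin, Hdac6, Wdr45 and Pqbp1, all at 0. Trpc1, a widely expressed cation channel, is on the minus strand of chromosome 9 at 95705082 to 95750375, within 461 consecutive minus-strand protein-coding genes without a read. On that strand 93.1% of protein-coding genes had no read, against 33.7% on the plus strand of the same chromosome and 34.7% over all chromosomes. The zeros of Cacna1f and Trpc1 were therefore shared with long runs of neighbours, and no level can be given for these genes from these counts. Cacng6, on chromosome 7 at 3424195 to 3435667, is next to Cacng7 and Cacng8, which had 298 and 1015 reads, so its zero was not shared by these neighbours. For Cacng6, a count of 0 allows up to 0.248 to 0.447 CPM in a library.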

How the data were processed

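The authors deposited a table of raw counts of reads per gene for each library. Per the submitters' processing notes TopHat2 2.0.9, DESeq2 and mm10 were used, and their roles are not given in the sources here. Which program counted the reads, with what annotation and strand setting, is not given in the sources used here. Each table ended with summary entries that name no gene (83.6% to 85.2% of the table total, mostly alignments that were not unique), and these were left out of library sizes and tests.

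All 9 libraries entered 1 edgeR 4.0.16 quasi-likelihood fit in R 4.3.3, with line as the only term, TMM normalization and filterByExpr by line (minimum count 10). Benjamini-Hochberg adjustment was over the 10728 genes tested within each comparison, at a threshold of 0.05, with 6 residual degrees of freedom (common biological coefficient of variation 1.40). The first line named is over the second in each fold change. Each SE was computed back as the absolute log2 value divided by the root of F. The fits were run on simulated counts with known changes, at a smaller spread and at the common spread of these data. Recovery of the changes was required only at the smaller spread, and the power at the spread of these data is not given here.

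Alternatives were DESeq2 1.42.0, DESeq2 size factors in edgeR, no filter, the replicate number as a block, each library left out, only the compared lines, and limma 3.58.1 voom, chosen after seeing the data. DESeq2 gave no p for Cacna1c, Cacna2d4 and Trpc2, among others. The members and gene lists were chosen with earlier results of these data known. Tested members were given by library where they averaged at least 10 CPM in 1 line and the libraries of 2 lines did not overlap. Others were given by mean or range, and Cacna1a, Cacna1b, Cacng2, Trpc4, Itpr1, Ryr2 and Ryr3 by library, which was chosen after their values were seen. Of each gene list up to 2 of the most abundant genes are named, and 1 member and some genes of the lists are not reported here. Exon lengths and positions are from GENCODE M21, and promoters from RefSeq.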

Additional observations from a re-analysis of the deposited data

How the results depend on the processing

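Members called by edgeR were 0 in every comparison, and stayed 0 with DESeq2 size factors, without the filter, with the replicate block and with only the compared lines. DESeq2 called 3 members (Cacna1h, Cacna2d1, Cacng5) between Nkx2.1 and SOM, 5 (Cacna1h, Cacna2d2, Cacnb4, Cacng3, Cacng5) between Nkx2.1 and VIP, 3 (Cacna2d1, Cacna2d2, Cacng3) between SOM and VIP, and 5 (Cacna1h, Cacna2d1, Cacna2d2, Cacng3, Cacng5) for any difference, and limma voom 2 between Nkx2.1 and VIP (Cacna1h, Cacng5) and 2 for any difference (Cacna1h, Cacng3). Leaving out 1 library gave 0 to 0, 0 to 0, 0 to 1 and 0 to 0 members in these 4 tests, the 1 being Cacng3 without VIP replicate 1.

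Calls over all genes were 10, 33, 8 and 36 in the edgeR fit and 768, 1262, 382 and 686 with DESeq2. With limma voom they were 113, 323, 75 and 356. With only the 2 compared lines they were 5, 20 and 32. Without the filter SOM against VIP gave 21. Leaving out 1 library gave 0 to 37, 12 to 48, 3 to 17 and 17 to 59. The cause was not tested. The replicate block gave 4, 11, 4 and 14 calls over all genes and changed no call of a member. Same-numbered libraries deviated with correlations of -0.0412 to 0.0671, so the numbers were not taken to pair libraries.

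For the 15 members named by rule, 21 fold changes were followed, chosen because the libraries of the 2 lines did not overlap. They kept their direction under all alternatives that gave a p. That choice left little room for a reversal, so the kept direction is no test of them. Of 312 values, 301 stayed on the same side of the threshold and 11 passed it that had not, 8 of them with DESeq2. A further 3 DESeq2 values, for Cacna1c and Cacna2d4, had no p. Sizes were less stable. Leaving out 1 library moved the log2 value of 6 of the 21 by over 1.5 times, to values given above for Cacna1e, Cacna2d3, Cacna2d4 (in 2 comparisons), Cacng4 and Trpc5. Log2 values that moved less could still move far as folds. That of Cacna1h for Nkx2.1 against SOM went from -8.63 to -12.2 without Nkx2.1 replicate 1. The replicate block gave 2.58 for Cacna1e, -6.46 and -5.61 for Cacna2d4 against VIP in Nkx2.1 and SOM, and -6.83 for Cacng4 in Nkx2.1 against VIP. Limma voom gave 4.42, -6.40, -4.67 and -7.02 for these and -4.60 for Cacna2d3. Depth limits the lowest members: with 3 reads at 0.248 to 0.447 CPM, Itpr3 cannot be ordered between lines, nor Cacng1 between Nkx2.1 and VIP (2 and 4 reads).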
